A study of Caenorhabditis elegans with 18 samples.

Results

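The genes described here are zig-3, T07D3.9, tag-290, F43G6.7 and W06D11.3, 5 of the 20953 genes measured in whole Caenorhabditis elegans. They were picked from these data because propionate given with vitamin B12 was accompanied by a higher level in wild type and by little or no rise in either of the deletion mutants nhr-10 and nhr-68, and because none encodes an enzyme of the propionate shunt. The values in the B12 and the B12 with propionate libraries therefore chose them and are given as a description, without a test. The untreated libraries took no part in that choice, and only there were the genes tested. In the untreated animals the 5 genes split: zig-3 and T07D3.9 were lower in both mutants than in wild type, whereas the levels of tag-290, F43G6.7 and W06D11.3 lay above wild type in both, with a difference that passed the test for F43G6.7 in the nhr-68 mutant. The description "lost in the mutants" thus fits the level of zig-3, which was at most 2.18 FPKM in any mutant library. T07D3.9 was lower than in untreated wild type but still present, at 4.49 to 8.35 FPKM in the mutant libraries. The others were already present in the mutants without propionate.

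Propionate is a short-chain fatty acid that arises from the breakdown of some amino acids and of odd-chain fatty acids. Animals degrade it through a route that depends on vitamin B12, and when B12 is scarce C. elegans turns on another route, the propionate shunt. NHR-10 and NHR-68 are nuclear hormone receptors, transcription factors of a family that often responds to small molecules, and they act together in switching on the shunt genes when propionate persists.

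The 18 RNA libraries form 9 groups of 2, with 3 genotypes under 3 treatments, each library coming from about 3000 L4 larvae. The genotypes were the N2 wild type, an nhr-10 deletion (allele tm4695) and an nhr-68 deletion (allele gk708, strain VC1527). After earlier culture on agar lacking B12, worms grew to the L4 stage on agar without addition, on agar with B12 (20 nM), or on agar with the same B12 and propionate (40 mM). The labels give an L1 arrest of 18 h and a treatment of 48 h for all libraries. Titles of the untreated libraries name OP50, a bacterial diet. Each mutant is represented by 1 allele, and the labels do not say whether replicates came from separate cultures, so the p-values measure only the spread between these samples.

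The step between low values implied about 12800000 to 14400000 fragments per library. The level of nhr-68 was 1.71 to 14.95 FPKM (fragments per kilobase of gene, scaled by library size, the unit of the deposited table) in its own mutant and 48.69 to 108.25 FPKM in wild type. The level of nhr-10 was 6.14 to 10.33 FPKM in its own mutant and 12.23 to 33.45 FPKM in wild type, so each receptor was lower where it was labelled as deleted. nhr-68 was also low in the nhr-10 mutants on B12 (5.18 and 13.06 FPKM) and on B12 with propionate (10.75 and 18.19 FPKM). Untreated nhr-10 mutants had 79.06 and 140.23 FPKM of it. Which part of each gene is missing is not given in the labels. Replicates of a group could differ in markers that change with stage. The summed level of 11 moulting markers was 2621.4 FPKM and 1663.8 FPKM in replicates 2 and 1 of propionate-treated nhr-10 mutants. In untreated wild type, the reference of the tests against wild type, it was 1850.0 and 731.8 FPKM in replicates 1 and 2. In wild type on B12 with propionate it was 1189.6 and 428.9 FPKM. Whole animals were used, so for every gene below fewer cells of a type and less RNA per cell cannot be told apart.

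zig-3 (WBGene00006980, chromosome X, 7930750 to 7931808 of WBcel235, 3 exons) encodes a secreted protein with immunoglobulin domains; zig genes are known from the nervous system, where zig-3 helps to keep axons of the ventral nerve cord in position. In wild type it stood at 43.3 and 17.98 FPKM untreated, at 0.73 and 1.33 FPKM on B12, and at 24.51 and 14.63 FPKM on B12 with propionate. The nhr-10 mutants had 0.8 and 0.47 FPKM untreated, 0.47 and 0.39 FPKM on B12, and 1.27 and 2.18 FPKM on B12 with propionate. The nhr-68 mutants had 1.25 and 1.06 FPKM untreated, 0.67 and 0.52 FPKM on B12, and 0.6 and 1.21 FPKM on B12 with propionate. The 4 wild type libraries without B12 or with propionate were thus above 14 FPKM, and the other 14 libraries were below 3 FPKM, close to the wild type level on B12.

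In order of their means, untreated wild type (30.6 ± 17.9 FPKM, SD, n = 2) and wild type on B12 with propionate (19.6 ± 6.99 FPKM) led for zig-3 and overlapped each other. A gap separated them from the propionate-treated nhr-10 mutants (1.73 ± 0.643 FPKM), which in turn did not overlap the group below. From the untreated nhr-68 mutants down to the nhr-68 mutants on B12, each group overlapped the next in order. Last, and without overlap, came the nhr-10 mutants on B12 at 0.43 ± 0.0566 FPKM. A single fragment adds 0.0756 to 0.0851 FPKM to zig-3, so these low levels rest on few fragments.

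T07D3.9 (WBGene00020311, chromosome II, 898043 to 900913, minus strand, 4 annotated transcripts) is a protein-coding gene whose function is not described in the sources used here. Its wild type level was 17.38 and 12.93 FPKM untreated, 6.99 and 8.11 FPKM on B12, and 56.65 and 44.98 FPKM on B12 with propionate. In the nhr-10 mutants it was 6.95 and 5.7 FPKM untreated, 6.11 and 5.09 FPKM on B12, and 6.59 and 8.13 FPKM on B12 with propionate. In the nhr-68 mutants it was 6.56 and 5.07 FPKM untreated, 6.89 and 4.49 FPKM on B12, and 8.35 and 5.93 FPKM on B12 with propionate. All 12 mutant libraries lay between 4.49 and 8.35 FPKM, a range that also held both wild type libraries on B12.

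Unlike zig-3, T07D3.9 stood higher in wild type on B12 with propionate (50.8 ± 8.25 FPKM) than in untreated wild type (15.2 ± 3.15 FPKM; SD, n = 2), by 3.35-fold, and these groups did not overlap. The 7 remaining groups had means between 5.6 and 7.55 FPKM, and each overlapped its neighbour in order. Wild type on B12 was the highest of them.

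tag-290 (WBGene00009386, chromosome V, 11613307 to 11614888, 2 exons) carries a temporary gene name and has no role given in the sources used here. It lies 37.6 kb from nhr-68. Wild type had 1.75 and 5.66 FPKM untreated, 1.78 and 0.81 FPKM on B12, and 6.46 and 17.51 FPKM on B12 with propionate. The nhr-10 mutants had 7.74 and 10.07 FPKM untreated, 17.99 and 14.2 FPKM on B12, and 6.65 and 4.14 FPKM on B12 with propionate. The nhr-68 mutants had 8.12 and 12.03 FPKM untreated, 12.03 and 16.25 FPKM on B12, and 12.57 and 13.56 FPKM on B12 with propionate. Wild type on B12 was the lowest group at 1.30 ± 0.686 FPKM and the nhr-10 mutants on B12 the highest at 16.1 ± 2.68 FPKM (SD, n = 2). Within the nhr-10 mutants the libraries with propionate lay below those on B12 alone.

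F43G6.7 (WBGene00009659, chromosome II, 11810790 to 11811674, 2 exons) is a short protein-coding gene with no described role in the sources used here. Its wild type level was 2.04 and 3.25 FPKM untreated, 0.41 and 0.84 FPKM on B12, and 5.29 and 8.93 FPKM on B12 with propionate. In the nhr-10 mutants it was 7.5 and 3.81 FPKM untreated, 8.23 and 4.61 FPKM on B12, and 8.46 and 5.95 FPKM on B12 with propionate. In the nhr-68 mutants it was 6.56 and 10.56 FPKM untreated, 7.77 and 4.9 FPKM on B12, and 7.37 and 10.15 FPKM on B12 with propionate. The 7 groups other than untreated wild type and wild type on B12 each overlapped the next in order, with means of 5.66 to 8.76 FPKM. Untreated wild type lay below them and wild type on B12 lower still, without overlap. With 402 bp of exon, 1 fragment adds 0.192 to 0.216 FPKM to this gene.

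W06D11.3 (WBGene00012301, chromosome X, 12298683 to 12300012, 3 exons), also without a described role in the sources used here, followed the same order at its bottom end. Wild type had 1.32 and 1.74 FPKM untreated, 0.44 and 0 FPKM on B12, and 3.05 and 5.66 FPKM on B12 with propionate. The nhr-10 mutants had 5.22 and 5.27 FPKM untreated, 8.82 and 3.55 FPKM on B12, and 4.32 and 1.65 FPKM on B12 with propionate. The nhr-68 mutants had 3.82 and 6.28 FPKM untreated, 3.55 and 3.74 FPKM on B12, and 4.97 and 6.37 FPKM on B12 with propionate. The wild type libraries on B12 were below all others, and the nhr-10 mutants with propionate reached down to the range of untreated wild type. The library listed at 0 could still hold up to 0.363 FPKM, the worth of 3 fragments, counting error only.

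**Figure D1:**
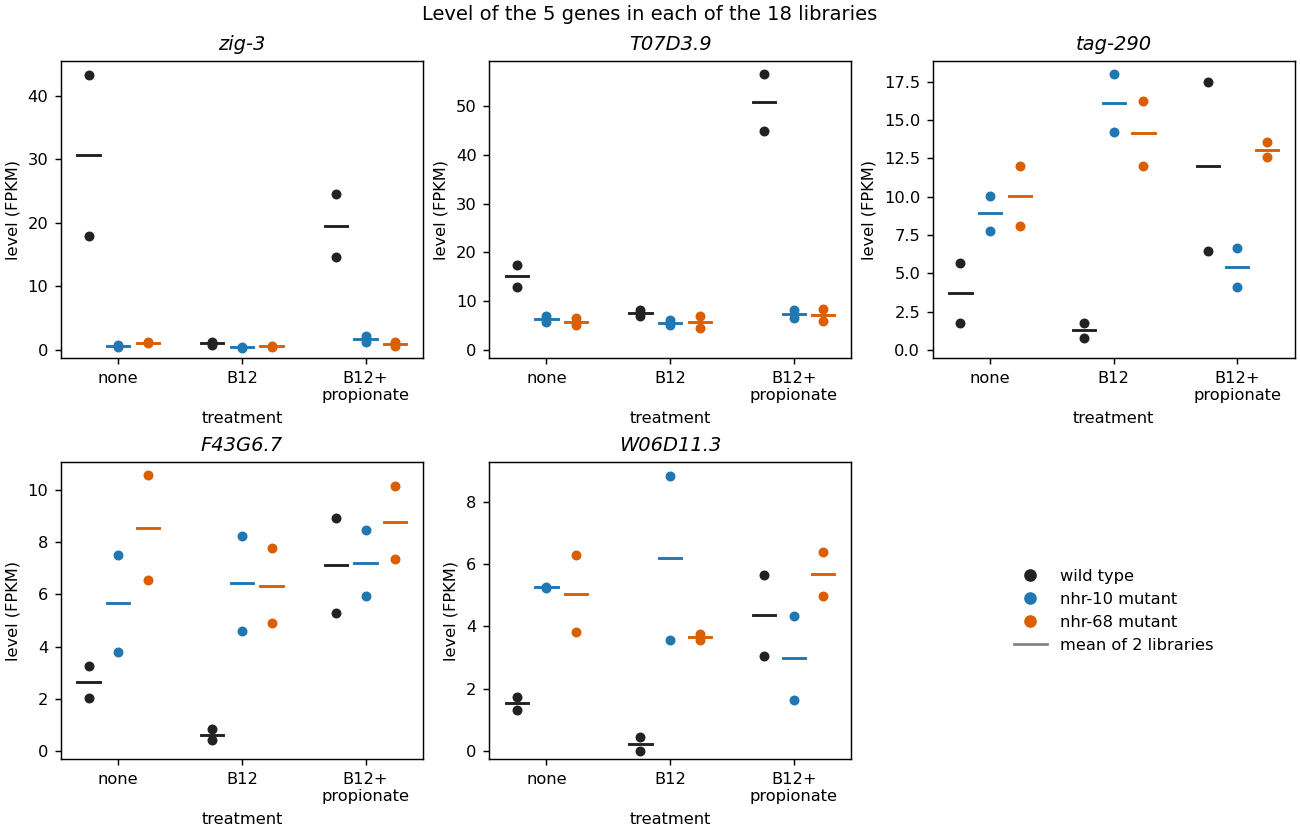
Level in FPKM (vertical axis, linear, a scale of its own for each gene) of the 5 genes under no addition, B12, and B12 with propionate. Points are single libraries, bars the mean of 2, and colours the genotypes; zig-3 and T07D3.9 stay near the wild type B12 level in every mutant library, whereas tag-290, F43G6.7 and W06D11.3 lie above it in every mutant library.

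The contrast on which the genes were chosen compares B12 with propionate against B12 alone. On the log2(FPKM + 1) scale, the scale of all log2 differences here, the wild type difference was 3.31 ± 0.358 for zig-3 (SE of limma, a linear model fitted to all genes), 2.59 ± 0.235 for T07D3.9 and 2.39 ± 0.449 for tag-290. For F43G6.7 it was 2.29 ± 0.372 and for W06D11.3 it was 2.11 ± 0.398. In all 5 genes both wild type libraries with propionate were above both on B12 alone, as were 32.1% of the 15575 genes tested. These are the values that selected the genes, and nothing further is read from them.

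In the mutants the same contrast took different forms. The nhr-10 mutants had a log2 difference of 0.91 ± 0.358 for zig-3, all of it below 3 FPKM, and of 0.34 ± 0.235 for T07D3.9. In these mutants tag-290 differed by -1.44 ± 0.449 and W06D11.3 by -0.83 ± 0.398, opposite in sign to wild type, and F43G6.7 by 0.17 ± 0.372. Without replicate 2 of these propionate-treated mutants, the library with the highest moulting markers and the lowest oocyte markers of all 18, tag-290 differed by -1.15 and W06D11.3 by -0.33. The nhr-68 mutants had differences between -0.09 (tag-290) and 0.51 (W06D11.3). In both mutants, then, zig-3 and T07D3.9 started and ended low, and tag-290, F43G6.7 and W06D11.3 started from a level above wild type on B12. In the nhr-10 mutants marker lists differed in this contrast too. Median log2 differences were 1.96 (11 moulting markers), -0.74 (10 oocyte markers) and -0.44 (16 sperm markers), against 0.04 over all tested genes.

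**Figure D2:**
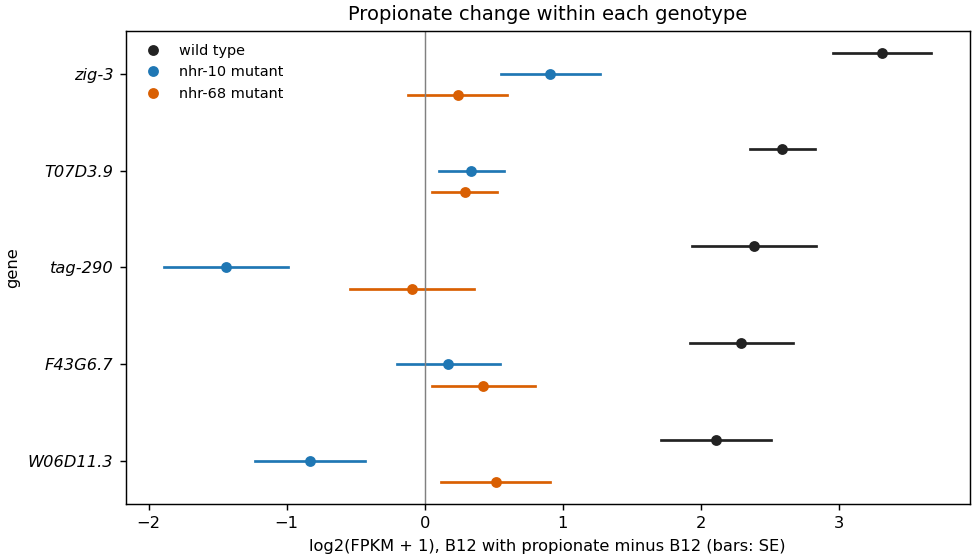
Difference in log2(FPKM + 1) between B12 with propionate and B12 alone (horizontal axis) for each gene in each genotype, with bars of 1 SE from limma. The wild type differences, between 2.11 and 3.31, are those by which the genes were chosen.

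On B12 alone, libraries that the choice also used, the mutants and wild type differed in the same split. tag-290 stood 12.4-fold above wild type in the nhr-10 mutants and 10.9-fold above it in the nhr-68 mutants (log2 differences of 2.92 ± 0.449 and 2.74 ± 0.449). F43G6.7 stood 10.3-fold and 10.1-fold above wild type (2.16 ± 0.372 in each). W06D11.3 differed by 2.48 ± 0.398 and 1.95 ± 0.398 on the log2 scale. zig-3 and T07D3.9 differed by -0.49 to -0.33. With propionate added, zig-3 differed from wild type by -2.89 ± 0.358 in the nhr-10 mutants and -3.41 ± 0.358 in the nhr-68 mutants, and T07D3.9 by -2.63 ± 0.235 and -2.68 ± 0.235, whereas tag-290, F43G6.7 and W06D11.3 overlapped wild type in both mutants.

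B12 against untreated wild type shares its B12 libraries with the choice and is likewise a description. zig-3 was 29.8-fold lower on B12 (log2 difference -3.85 ± 0.358), and in the mutants, which were low already, the differences were -0.19 and -0.43. T07D3.9 differed by -0.91 ± 0.235 in wild type and by -0.15 and -0.04 in the nhr-10 and nhr-68 mutants. F43G6.7 (-1.16 ± 0.372) and W06D11.3 (-1.07 ± 0.398) were lower on B12 in wild type, and the libraries of tag-290 (-0.93 ± 0.449) overlapped. In the mutants tag-290 differed by 0.79 and 0.46, F43G6.7 by 0.17 and -0.38, and W06D11.3 by 0.10 and -0.35. Wild type on B12 with propionate had a higher mean than untreated wild type in T07D3.9, tag-290, F43G6.7 and W06D11.3 (log2 differences of 1.69, 1.46, 1.14 and 1.04). The libraries of zig-3 overlapped (-0.54, 95% interval -1.31 to 0.24).

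In the untreated animals each mutant was compared with wild type, with neither B12 nor propionate added. zig-3 fell from 30.6 ± 17.9 FPKM in wild type to 0.635 ± 0.233 FPKM in the nhr-10 mutants and 1.16 ± 0.134 FPKM in the nhr-68 mutants (SD, n = 2). Its log2 difference was -4.16 ± 0.358 in the nhr-10 mutants (SE; limma with Benjamini-Hochberg adjustment over 15575 genes, adjusted p = 0.000111) and -3.75 ± 0.358 in the nhr-68 mutants (limma adjusted p = 0.000239). By p-value it ranked as gene 5 in the former comparison and gene 9 in the latter. Both wild type libraries were above both libraries of each mutant, and the call held in each fit that left out a library (log2 differences of -4.77 to -3.54 for nhr-10 and -4.36 to -3.14 for nhr-68).

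T07D3.9 fell from 15.2 ± 3.15 FPKM without additions in wild type to 6.33 ± 0.884 FPKM in nhr-10 mutants and 5.82 ± 1.05 FPKM in nhr-68 mutants. The log2 differences were -1.13 ± 0.235 (limma adjusted p = 0.0347) and -1.24 ± 0.235 (limma adjusted p = 0.0133). Its libraries did not overlap between genotypes either. With only the compared groups in the fit, T07D3.9 was called in neither mutant (limma adjusted p = 0.0918 in nhr-10 and 0.0811 in nhr-68). With low genes kept in, it was not called in nhr-10 (limma adjusted p = 0.0609). The nhr-10 call was lost without any single one of the 4 libraries (limma adjusted p of 0.148 and 0.0824 without untreated wild type replicate 1 and 2, and of 0.111 and 0.244 without nhr-10 replicate 1 and 2). The nhr-68 call ended without wild type replicate 1 (0.107) and without nhr-68 replicate 2 (0.175).

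The other 3 genes lay above wild type in both untreated mutants, again with no overlap between libraries, but mostly short of the threshold. F43G6.7 rose from 2.65 ± 0.856 FPKM to 8.56 ± 2.83 FPKM in the nhr-68 mutants (log2 1.38 ± 0.372, limma adjusted p = 0.048). It missed the threshold as soon as 1 of the 4 libraries was dropped (limma adjusted p of 0.248 and 0.0965 without wild type replicate 1 and 2, and of 0.0576 and 0.42 without nhr-68 replicate 1 and 2), with the replicate block (0.0563), when 0.1 replaced 1 as the pseudocount (0.0541), when low genes stayed in (0.0835) and with only the compared groups in the fit (0.0907). In the nhr-10 mutants F43G6.7 was at 5.66 ± 2.61 FPKM (0.83 ± 0.372, limma adjusted p = 0.264). tag-290 was at 3.71 ± 2.76 FPKM in wild type, 8.91 ± 1.65 FPKM in the nhr-10 mutants and 10.1 ± 2.76 FPKM in the nhr-68 mutants (limma adjusted p = 0.204 and 0.0949). W06D11.3 was at 1.53 ± 0.297, 5.25 ± 0.0354 and 5.05 ± 1.74 FPKM (limma adjusted p = 0.138 and 0.0866).

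The non-overlap of all 5 genes is itself common: in the untreated nhr-10 mutants 16.1% of all tested genes lay wholly below wild type and 31.3% wholly above it, and in the untreated nhr-68 mutants 28.5% and 24.3% did. In counts, 2 of the 5 genes were called lower in the untreated nhr-10 mutants, where 0.295% of all tested genes were. None was called higher, where 1.1% were. At an unadjusted limma p under 0.05, 3 were higher, and 18.2% of all tested genes reached that p in either direction. In the untreated nhr-68 mutants 2 were called lower, against 3.58% of all tested genes, and 1 higher, against 2.44%. The median log2 difference over all genes was 0.11 in the nhr-10 comparison and -0.02 in the nhr-68 comparison, and median-ratio scaling of the libraries moved the former to -0.0024 without changing a call of the 5. The mutants compared with each other untreated gave log2 differences between -0.11 (T07D3.9, 95% interval -0.62 to 0.40) and 0.55 (F43G6.7, -0.26 to 1.35), and none of the 5 passed in limma, adjusted or at an unadjusted p under 0.05. The median over all genes was -0.16 there and -0.0098 after median-ratio scaling, which turned the sign of T07D3.9 and W06D11.3. In that comparison 0.559% of all tested genes were called, and 18.8% had an unadjusted p under 0.05. There zig-3 was at 0.8 and 0.47 FPKM in the nhr-10 mutants and 1.25 and 1.06 FPKM in the nhr-68 mutants (log2 difference 0.40, 95% interval -0.37 to 1.18). These levels rest on few fragments.

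**Figure D3:**
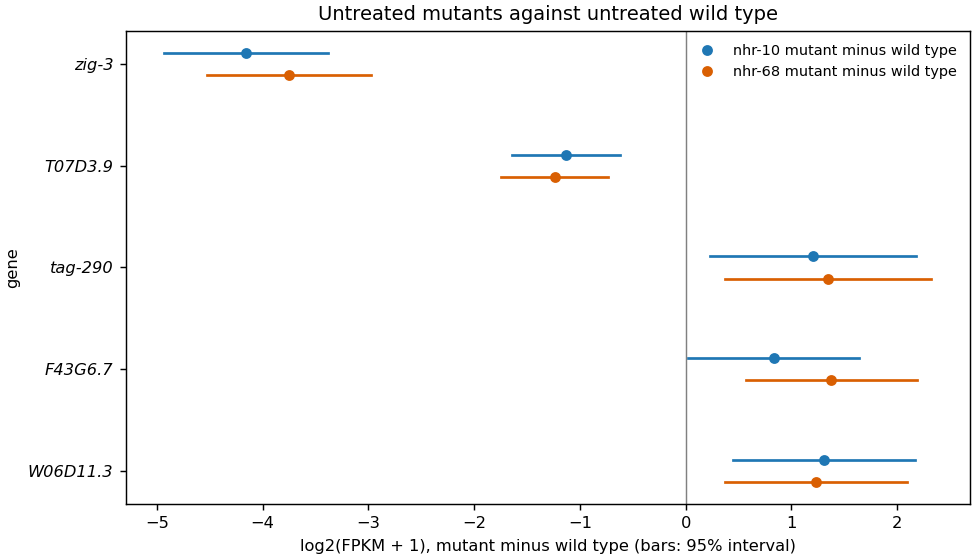
Difference in log2(FPKM + 1) between each untreated mutant and untreated wild type (horizontal axis) with limma's 95% interval, for n = 2 libraries per group. zig-3 and T07D3.9 lie left of 0 in both mutants and the other 3 genes right of it, with F43G6.7 in the nhr-68 mutants at 1.38 as the one called on that side.

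The 11 other zig genes give the setting for zig-3. None was called in limma in the untreated nhr-10 or nhr-68 mutants (3 and 1 at an unadjusted limma p under 0.05) or with propionate in wild type (1 at an unadjusted limma p under 0.05), while 0.411% of all tested genes were called in the last. Over all tested genes an unadjusted p under 0.05 was reached by 18.2%, 23.8% and 19% in these 3 comparisons. Their median log2 difference was 0.11 in the untreated nhr-10 mutants, as over all genes, and -0.14 in the untreated nhr-68 mutants. zig-4, the nearest protein-coding gene to zig-3 at 4155 bp and likewise known for maintaining ventral cord axons, was at 2.64 ± 0.198 FPKM in untreated wild type, 3.28 ± 0.396 FPKM in the nhr-10 mutants and 2.88 ± 0.255 FPKM in the nhr-68 mutants (limma adjusted p = 0.643 and 0.87). zig-10 was at 1.61 ± 0.502 FPKM in wild type and 4.09 ± 0.205 FPKM in the nhr-10 mutants (limma adjusted p = 0.0927), and zig-9 at 45.4 ± 7.34 FPKM in wild type and 27.6 ± 1.90 FPKM in the nhr-68 mutants (limma adjusted p = 0.0887). The summed level of 19 neuron markers lay between 522.0 and 557.2 FPKM in untreated wild type, 590.3 and 632.6 FPKM in the nhr-10 mutants and 545.1 and 553.0 FPKM in the nhr-68 mutants, and none of them was called in limma (4 and 2 at an unadjusted limma p under 0.05, median log2 difference 0.14 and 0.01).

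Set beside zig-3 and T07D3.9, all 5 shunt genes were lower in the untreated nhr-10 mutants and 4 of 5 in the untreated nhr-68 mutants in limma, with median log2 differences of -2.15 and -1.64. hach-1, which encodes a hydrolase of the shunt, fell from 266.6 ± 88.2 FPKM to 58.4 ± 11.8 and 142.9 ± 3.46 FPKM (log2 -2.15 ± 0.22 and -0.85 ± 0.22, limma adjusted p = 0.000407 and 0.041).

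The genes whose pattern over the 18 libraries was most like that of each gene were found by Pearson's r of log2(FPKM + 1), given as a description because the libraries share treatments and genotypes. For zig-3 they were F32D8.12 (r = 0.898), the nuclear hormone receptor gene nhr-101 (0.897) and vmo-1 (0.892). nhr-101 had group means of 19.4 FPKM in untreated wild type, 8.84 on B12 and 18.6 on B12 with propionate, and of 4.36 to 9.02 FPKM in the 6 mutant groups. For T07D3.9 they were E04D5.5 (0.878), lgc-54 of the ligand-gated ion channel family (0.860) and hach-1 (0.846). E04D5.5 had 36.8 FPKM in wild type on B12 with propionate and means of 7.51 to 13.3 FPKM in the 8 other groups.

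For tag-290 the closest were T05A7.1 (r = 0.963), Y4C6B.2 (0.963) and C54D10.10 (0.959). For F43G6.7 they were lin-41 (0.932), a developmental timing gene that also acts in growing oocytes, C04B4.2 (0.931) and the F-box gene fbxc-50 (0.928). For W06D11.3 they were F53F8.3 (0.970), the C-type lectin gene clec-88 (0.964) and F14H3.6 (0.960). lin-41 had means of 16.6, 8.92 and 21.7 FPKM in untreated, B12 and propionate wild type and of 21.7 to 35.0 FPKM in the mutants. Among themselves zig-3 and T07D3.9 correlated at 0.844 and the other 3 genes at 0.813 to 0.909, whereas between these sets r lay from -0.306 to -0.031. Most alike to the average of all 5 were perm-1 (0.860), a gene of the eggshell permeability barrier, Y51A2B.6 (0.859), the pseudogene WBGene00020434 (0.847), the meiotic crossover gene zhp-4 (0.830) and F54D10.5 (0.818).

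**Figure D4:**
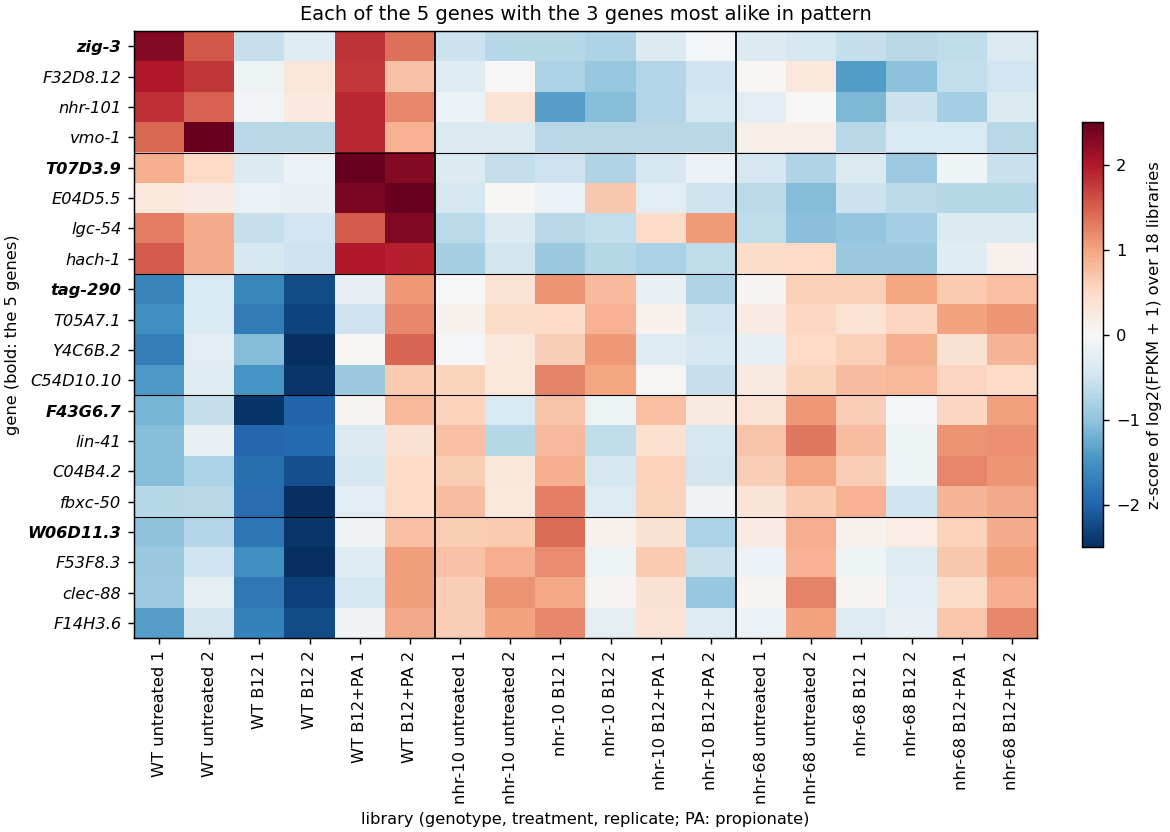
Standardised log2(FPKM + 1) (colour, z-score over 18 libraries) of the 5 genes in bold, each above the 3 genes most alike in pattern, with libraries in columns by genotype, treatment and replicate. The zig-3 and T07D3.9 rows are high in wild type without B12 or with propionate; the lower rows are lowest in wild type on B12 and at mid or high level in most mutant libraries.

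Oocyte markers varied together with tag-290, F43G6.7 and W06D11.3. The summed level of 10 such markers, among them the yolk receptor gene rme-2 and the oocyte maturation genes oma-1 and oma-2, was 413.9 and 941.9 FPKM in untreated wild type, 374.4 to 406.0 FPKM in wild type on B12, and 543.0 to 1054.2 FPKM in wild type on B12 with propionate. It was 712.1 to 891.6, 1059.0 to 1344.0 and 301.0 to 676.8 FPKM in the nhr-10 mutants under the same treatments, and 942.1 to 1587.0, 1055.2 to 1196.7 and 1088.8 to 1168.7 FPKM in the nhr-68 mutants. No marker was at 0 in any library. The untreated wild type library with more of them, replicate 2, was also the one with more tag-290, F43G6.7 and W06D11.3. Replicates did not always pair this way. In wild type on B12, untreated nhr-10 mutants and nhr-68 mutants on B12, the replicate with more markers had less tag-290 and W06D11.3 but more F43G6.7. In the remaining groups it had more of each of these genes. None of the 10 was called in limma with propionate in wild type (7 at an unadjusted limma p under 0.05, median log2 difference 1.06), nor in the untreated nhr-10 or nhr-68 mutants (3 and 6 unadjusted, medians 0.65 and 0.94).

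Over the 18 libraries the log2 summed level of these markers correlated with tag-290 at r = 0.854, with W06D11.3 at 0.789 and with F43G6.7 at 0.695, and with zig-3 and T07D3.9 at -0.304 and -0.243. Other lists varied with these genes as well: tag-290 correlated at -0.644 with moulting, 0.605 with pharynx and 0.523 with sperm markers, and T07D3.9 at -0.57 with pharynx and -0.543 with body wall muscle markers. F43G6.7 and W06D11.3 correlated at 0.411 and 0.394 with pharynx and -0.396 and -0.452 with moulting markers, and zig-3 at -0.49 with pharynx markers. The summed zig genes, zig-3 among them, correlated at -0.677 with F43G6.7, -0.545 with W06D11.3 and -0.474 with tag-290. With zig-3 and T07D3.9 they correlated at 0.497 and 0.368. The summed shunt genes correlated at 0.905 with zig-3 and 0.803 with T07D3.9, and at -0.223 to -0.138 with the other 3 genes. With the oocyte marker level (mean log2 over the 10 markers) as a covariate, an analysis added once the values were known, the wild type propionate difference was 1.35 for tag-290, 1.45 for F43G6.7 and 1.24 for W06D11.3, and it was 3.98 for zig-3 and 2.87 for T07D3.9. For propionate in the nhr-10 mutants that fit gave -0.59 for tag-290, -0.11 for W06D11.3, 0.86 for F43G6.7, 0.36 for zig-3 and 0.11 for T07D3.9. In the nhr-68 mutants it gave -0.41 for tag-290, 0.25 for W06D11.3, 0.17 for F43G6.7, 0.44 for zig-3 and 0.38 for T07D3.9. On B12 the nhr-10 mutants then differed from wild type by 1.56 for tag-290, 1.05 for F43G6.7 and 1.33 for W06D11.3, and the nhr-68 mutants by 1.502, 1.15 and 0.91. zig-3 on B12 turned from -0.49 to 0.38 in the nhr-10 mutants and from -0.33 to 0.46 in the nhr-68 mutants. In the same fit the untreated differences of zig-3 passed in both mutants (-3.81 and -3.18; limma adjusted p = 0.000163 and 0.00162), while those of T07D3.9 missed the threshold at a similar size (-0.99 against -1.13, and -0.999 against -1.24 without the covariate; limma adjusted p = 0.0545 and 0.111). F43G6.7 in the nhr-68 mutants went from 1.38 to 0.65 (limma adjusted p = 0.351). Sperm markers had 2 of 16 called lower in the untreated nhr-68 mutants and none called in the untreated nhr-10 mutants (9 at an unadjusted limma p under 0.05). Moulting markers had none of 11 called in either (4 and 4 unadjusted), and no intestine, body wall muscle or pharynx marker was called there in limma (at most 1 of each list at an unadjusted limma p under 0.05). The oocyte marker level itself differed with genotype and treatment, so the covariate fit cannot separate it from them. The part of oocyte, sperm, moulting, pharynx and body wall muscle markers in these results was not tested.

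**Figure D5:**
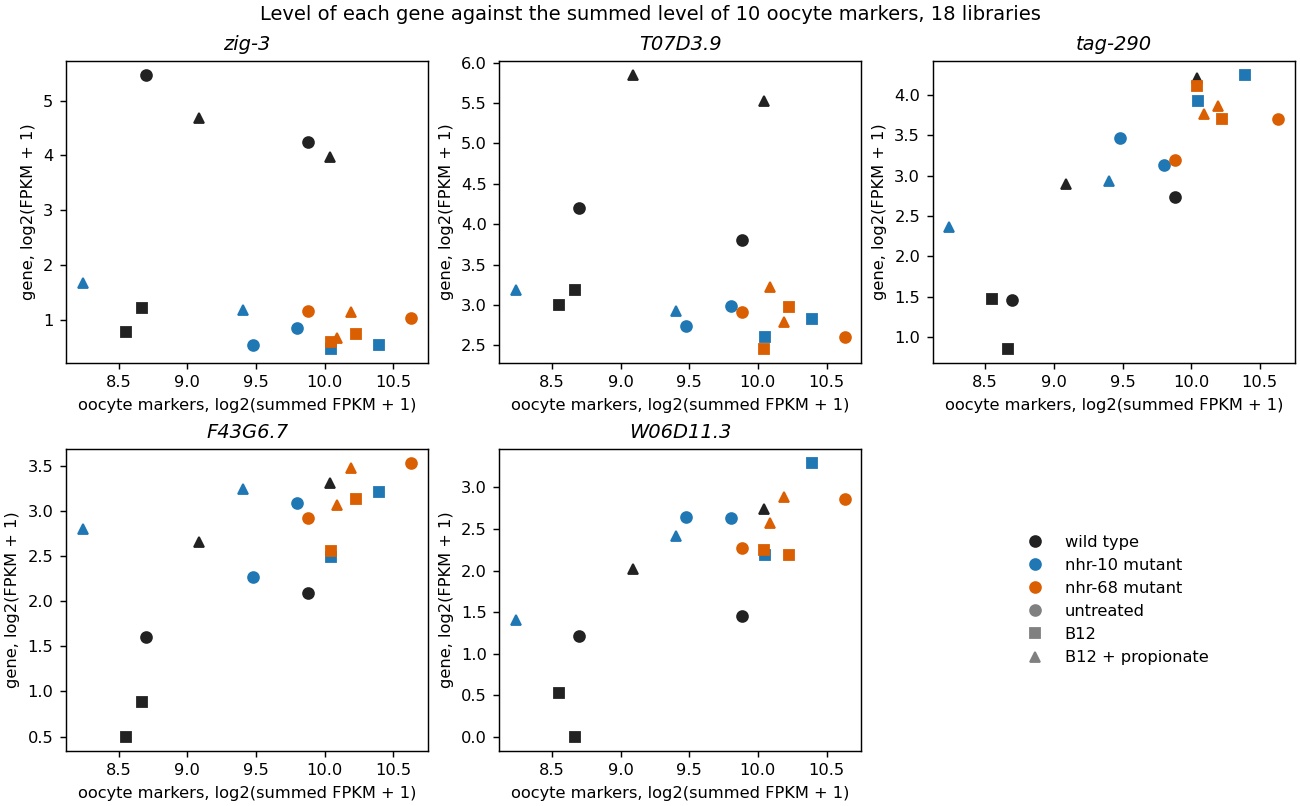
log2(FPKM + 1) of each gene (vertical axis) against log2 of the summed FPKM + 1 of 10 oocyte markers (horizontal axis), 1 point per library, with colour for genotype and shape for treatment. tag-290, F43G6.7 and W06D11.3 are higher where the markers are higher (r = 0.854, 0.695 and 0.789), while the 4 high zig-3 libraries, all wild type, span low and high marker levels.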

How the data were processed

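The authors deposited FPKM values for 20953 genes, 1 column for each of 18 libraries. HISAT, Bowtie2, RSEM and the WBcel235 build appear in the list of tools and builds, per the submitters' processing notes; no version, setting or use of strand is given there. RSEM shares out reads that map to several genes. Gene symbols (for 19090 identifiers) and positions were read from Ensembl's WBcel235 annotation, release 115, in which none of the 5 genes overlaps another. Depth was estimated from the FPKM steps of single-transcript genes, after subtracting 40 bp from their length.

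A gene was kept where 2 or more libraries reached 1 FPKM (15575 genes, all 5 described here among them). log2(FPKM + 1), a scale that understates changes near or under 1 FPKM, was modelled in limma 3.58.1 (R 4.3.3) over all libraries as 9 group means with a trended prior, leaving 9 residual and 3.6 prior degrees of freedom. Calls are at a Benjamini-Hochberg adjusted p under 0.05. The procedure was tested on simulated data. Alternatives were a pseudocount of 0.1, no filter, median-ratio scaling, only the compared groups, the replicate number as a block, and each library left out in turn. Replicates of a group correlated at 0.9695 to 0.9859 across genes.

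The genes, gene lists and tests were chosen with earlier results of these data known. Named are the 5 genes, the zig genes of smallest adjusted p (zig-9 and zig-10), the receptors, and the 3 genes most alike to each gene and 5 most alike to their mean. zig-4 was added as the neighbour of zig-3. Of the shunt genes, hach-1 was given with values as a gene most alike to T07D3.9. Other shunt genes had a smaller adjusted p in the untreated comparisons.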

Additional observations from a re-analysis of the deposited data

Results flagged for a closer look

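tag-290 differed in opposite directions in wild type and in the nhr-10 mutants, with every library of a group on the same side. Its mean level on B12 with propionate was 9.25 times the level on B12 alone in wild type and 0.335 times that level in the nhr-10 mutants. Against untreated animals it was 3.23 times as high in wild type, 0.606 times in the nhr-10 mutants and 1.3 times in the nhr-68 mutants, so that the direction also differed between the mutants. W06D11.3 was 2.85 times its untreated level in wild type and 0.569 times in the nhr-10 mutants. Between B12 with propionate and B12 alone, marker lists in the nhr-10 mutants differed as well. Median log2 differences were 1.96 (11 moulting markers), -0.74 (10 oocyte markers) and -0.44 (16 sperm markers), against 0.04 over all tested genes. In wild type the oocyte median was 1.06. With the oocyte marker level as a covariate, tag-290 between B12 with propionate and B12 alone went from -1.44 to -0.59 on the log2 scale in the nhr-10 mutants and from 2.39 to 1.35 in wild type. Against untreated animals the covariate took tag-290 in the nhr-10 mutants from -0.65 to 0.08, and W06D11.3 from -0.73 to -0.12. These differences were not tested, since the B12 and propionate libraries chose the genes.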

How the results depend on the processing

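Of the 5 genes, zig-3 was called lower in both untreated mutants under every alternative run. The 2 genes called in the untreated nhr-10 mutants became 1 without the low-value filter, 1 with the oocyte covariate, and 1 without any of the 4 libraries, T07D3.9 being lost; with only the compared groups they were zig-3 and W06D11.3 (adjusted p = 0.0493) instead. The 3 called in the untreated nhr-68 mutants became 2 with the pseudocount of 0.1, without the low-value filter and with the replicate block, 1 with only the compared groups, 1 with the oocyte covariate, and 1 to 2 without a library. In the alternatives run, all 5 genes kept a larger propionate difference in wild type than in either mutant, with 1 exception. With only the compared groups this held for 4, since zig-3 in the nhr-68 mutants then fell under the low-value filter. The same libraries chose the genes by that difference, so its persistence is no further evidence for it. Over all genes, the 217 called in the untreated nhr-10 mutants became 389 with the oocyte covariate and 59 to 87 without a library. The 938 called in the nhr-68 mutants became 165 with only the compared groups, 176 with the oocyte covariate and 33 to 534 without a library. The 87 called between the mutants became 134 with the replicate block, 42 with only the compared groups and 27 to 53 without a library. In that comparison, where none of the 5 passed, median-ratio scaling turned T07D3.9 to 0.046 and W06D11.3 to 0.075, the oocyte covariate turned tag-290 to -0.21, and leaving out a library gave T07D3.9 -0.27 to 0.051, tag-290 -0.11 to 0.41 and W06D11.3 -0.37 to 0.22. Replicates of the same number deviated alike in some pairs of groups and in opposite ways in others (15 of 36 correlations between groups over 0.1, from -0.379 to 0.563). Whether the number pairs the samples is therefore not settled. The replicate block changed no other call of the 5 beside that of F43G6.7. The causes were not tested. A fit without a library leaves a group with 1, taken to vary like the others. At this depth levels under about 1 FPKM rest on few fragments.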
